A study of Mus musculus with 2 samples.

Results

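The HoxA cluster on mouse chromosome 6 was described by the methylation of its single CpGs, from just below Hoxa2 to just above Hoxa13. Its members were every CpG listed for the interval that holds Hoxa2, Hoxa3, Hoxa4, Hoxa5, Hoxa6, Hoxa7, Hoxa9, Hoxa10, Hoxa11 and Hoxa13, chosen by position alone: 1017 of the 1790826 CpGs in the table, the first at chr6:52110727 and the last at chr6:52213355 (mm9, the NCBIM37 build). DNA came from mouse embryonic fibroblasts (MEFs, cells grown from dissociated embryos) of the genotypes Dnmt1+/+ and Dnmt1-/-. According to the study, cells called Dnmt1-/- are homozygous for a hypomorphic Dnmt1 allele, which lowers rather than abolishes the enzyme, and cells of both genotypes are also null for trp53. Reduced-representation bisulfite sequencing (RRBS), which reads a CpG-rich fraction of the genome after bisulfite has converted unmethylated cytosine, was performed on 1 library of each genotype, so differences are between libraries and have no replicate check.

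Hox genes encode homeodomain transcription factors that give cells their position along the body axis, and their order along the chromosome follows the order in which they are used from head to tail. In cells where they are silent they are classic targets of the Polycomb repressive complexes, and their CpG-rich sequence is usually little methylated. Dnmt1 copies CpG methylation onto the new strand after DNA replication, so most of the genome loses methylation where it is impaired.

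The 1017 CpGs were 32.8% of the 3100 CpGs of the interval, and the longest stretch with no listed CpG was 7.696 kb. Of them, 269 (26.5%) lay in CCGG or TCGA, the sites cut by the restriction enzymes MspI and TaqI, and these read far above the CpGs around them. In 1 kb tiles whose remaining CpGs averaged under 5%, CpGs of CCGG or TCGA averaged 53.7% in Dnmt1+/+ (46 CpGs in 8 tiles) and 52.2% in Dnmt1-/- (140 CpGs in 25 tiles); the cause was not tested. The 748 other CpGs carry the values below, at a median depth of 38 methylation calls in Dnmt1+/+ and 43 in Dnmt1-/- (range 10 to 154 and 10 to 240). At these depths a CpG with 0 methylated calls allows up to 7.89% methylation in Dnmt1+/+ and 6.98% in Dnmt1-/- (3 calls), and at 10 calls up to 30%.

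Sequences of 4 of the 10 runs of CpGs that gained methylation are shown first, chosen to show gains upstream of genes and between them and not by their size, from the plus strand of NCBIM37, with the CpGs outside CCGG and TCGA that were called higher in Dnmt1-/- in capitals. The HoxA genes are transcribed from the minus strand, so upstream of a gene means a higher coordinate. The stretches stand just upstream of Hoxa5 (chr6:52154694-52154842), just upstream of Hoxa2 (chr6:52115730-52115776, in an exon of the noncoding transcript 5730446D14Rik), in an exon of Hoxa11as, the noncoding RNA antisense to Hoxa11 (chr6:52199281-52199402), and between Hoxa11 and Hoxa13 outside any annotated exon (chr6:52202896-52203164).
Hoxa5 upstream: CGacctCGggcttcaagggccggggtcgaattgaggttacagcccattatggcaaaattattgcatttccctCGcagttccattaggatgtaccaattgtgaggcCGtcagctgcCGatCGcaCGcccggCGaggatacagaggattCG
Hoxa2 upstream: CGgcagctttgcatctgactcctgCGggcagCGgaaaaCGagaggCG
Hoxa11as exon: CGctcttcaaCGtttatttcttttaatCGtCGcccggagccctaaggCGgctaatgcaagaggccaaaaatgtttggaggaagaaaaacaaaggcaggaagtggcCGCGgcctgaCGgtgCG
Hoxa11 to Hoxa13: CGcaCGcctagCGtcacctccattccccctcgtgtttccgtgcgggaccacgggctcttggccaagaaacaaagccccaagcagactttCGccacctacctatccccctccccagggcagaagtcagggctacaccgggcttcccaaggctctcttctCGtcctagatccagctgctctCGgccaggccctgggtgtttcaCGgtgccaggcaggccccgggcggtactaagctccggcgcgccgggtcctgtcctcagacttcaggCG
For contrast, the 200 bases that precede the Hoxa11 start (chr6:52196214-52196413, within Hoxa11as) are printed with their 5 measured CpGs outside CCGG and TCGA in capitals, at a mean of 16.8% in Dnmt1+/+ and 1.54% in Dnmt1-/-, of which 0 were called higher and 1 was called lower.
Hoxa11 upstream: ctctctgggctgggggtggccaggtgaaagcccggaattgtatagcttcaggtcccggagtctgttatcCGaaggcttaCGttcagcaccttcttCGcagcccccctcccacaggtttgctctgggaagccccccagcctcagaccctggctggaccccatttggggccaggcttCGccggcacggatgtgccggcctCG

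Over the 748 other CpGs, the cluster was slightly more methylated in the Dnmt1-/- library, while the same kind of CpG fell steeply over the whole table. The HoxA mean was 12.3% in Dnmt1+/+ and 15.0% in Dnmt1-/-, against 45.0% and 15.1% over the 996064 other CpGs of the table. Pooled calls gave 10.3% (95% Wilson interval 10.03 to 10.7) of 36130 calls in Dnmt1+/+ and 14.9% (14.6 to 15.3) of 45400 in Dnmt1-/-. A CpG was called where Fisher's exact test (two-sided, on its methylated and unmethylated calls) gave a p under 0.05 after Benjamini-Hochberg adjustment across every CpG of the table. By this test 155 HoxA CpGs (20.7%) were called higher in Dnmt1-/-, where 0.635% of other CpGs in the table were, and 111 (14.8%) were called lower, where 44.2% were. The remaining 482 were not called, and the median change over the cluster was -0.930 percentage points, so the higher mean came with a minority of CpGs that gained a lot. CpGs called lower numbered 65 at an adjusted p under 0.01 (39.1% in the table) and 44 with a difference of at least 25 points (41.3%). The test sets one library against the other, not one genotype against the other, and neighbouring CpGs share reads, so the calls within a stretch are not independent.

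**Figure D1:**
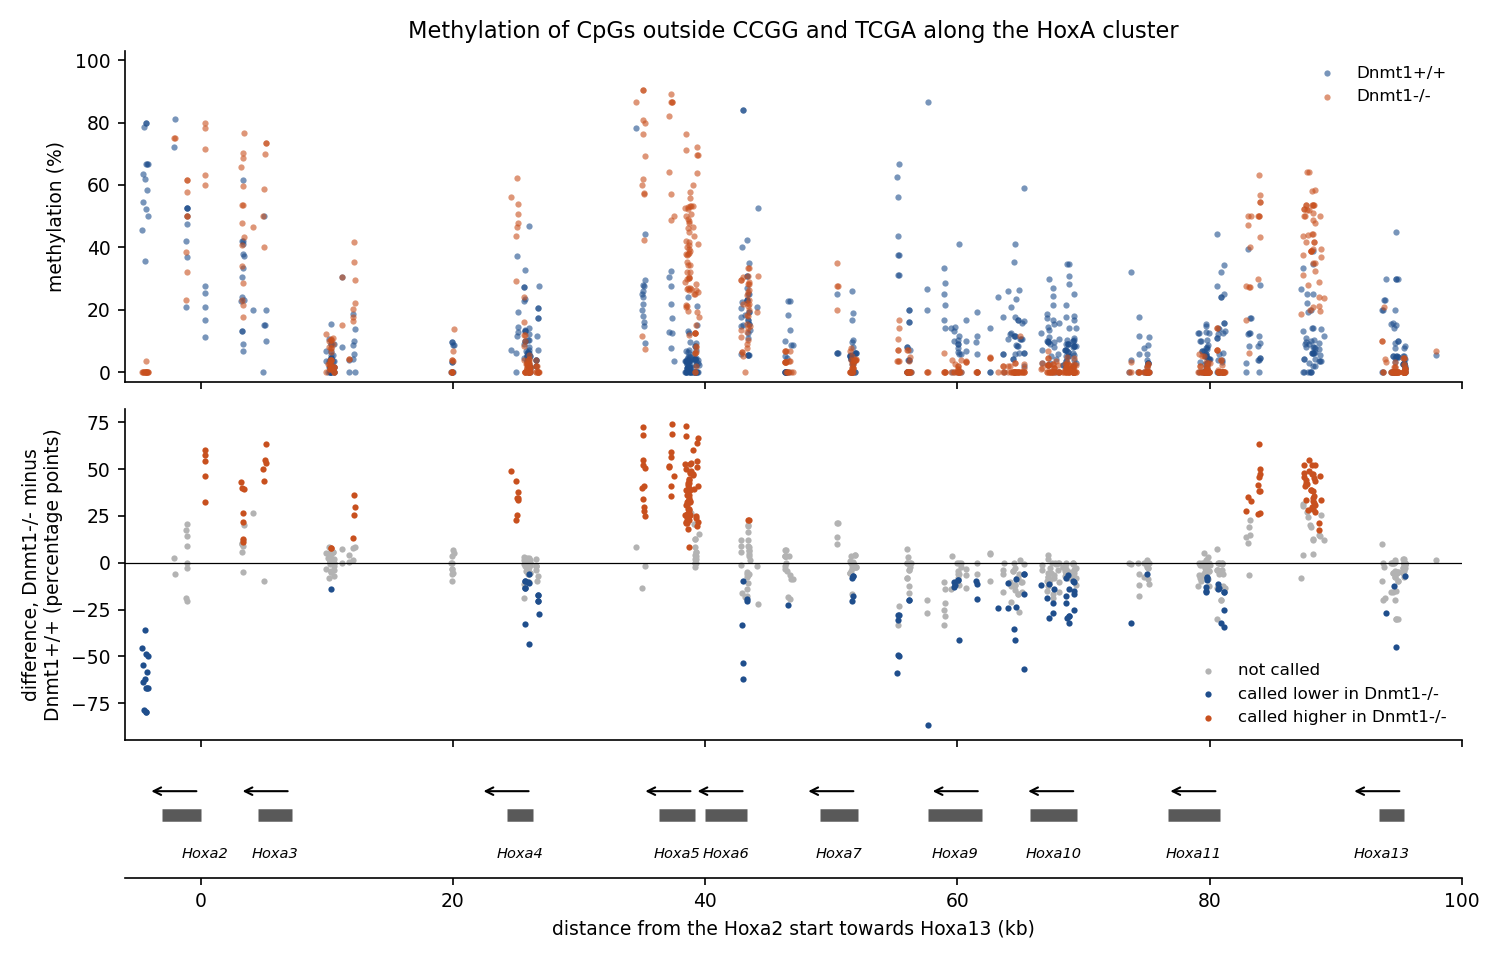
Methylation of each of the 748 HoxA CpGs outside CCGG and TCGA against distance from the Hoxa2 start in kb; the upper panel shows percent methylation in both libraries, the middle panel the difference in percentage points with CpGs called higher in orange and lower in blue, and the lower panel the 10 genes with arrows in the direction of transcription. Gains cluster from Hoxa2 to Hoxa5 and between Hoxa11 and Hoxa13, while from Hoxa6 to Hoxa11 most points lie at or below 0 difference.

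The 155 CpGs called higher started low and reached intermediate levels. Their median was 5.88% in Dnmt1+/+ and 50% in Dnmt1-/- (quartiles 35.1 and 58.2), 25 of them had 0 methylated calls in Dnmt1+/+, and 138 stood between 20% and 80% in Dnmt1-/-. The 111 CpGs called lower started at a median of 20% and ended at a median of 0%, with 71 of them at 0 methylated calls in Dnmt1-/-. Among HoxA CpGs at 20% or less in Dnmt1+/+, 131 of 605 (21.7%) were called higher, against 1.05% of the 479741 such CpGs in the table, and 56 (9.26%) were called lower, against 2.83%. Only 6 HoxA CpGs were at 80% or more in Dnmt1+/+, of which 5 were called lower, and their mean went from 82.6% to 21.2%. The share called lower was 88.2% among the 377268 such CpGs of the table, whose mean went from 94.6% to 32.0%. For CpGs called higher, called lower and not called, the median number of CpGs in a surrounding window of 200 bp was 15, 14 and 16, and the median GC content was 60.5%, 62% and 64.5%. By position relative to 1 coding transcript per gene, 338 HoxA CpGs lay within 1 kb of a start, 94 in exons, 47 in introns and 269 between genes. Of these, in the same order, 65, 21, 1 and 68 were called higher and 53, 11, 9 and 38 were called lower.

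**Figure D2:**
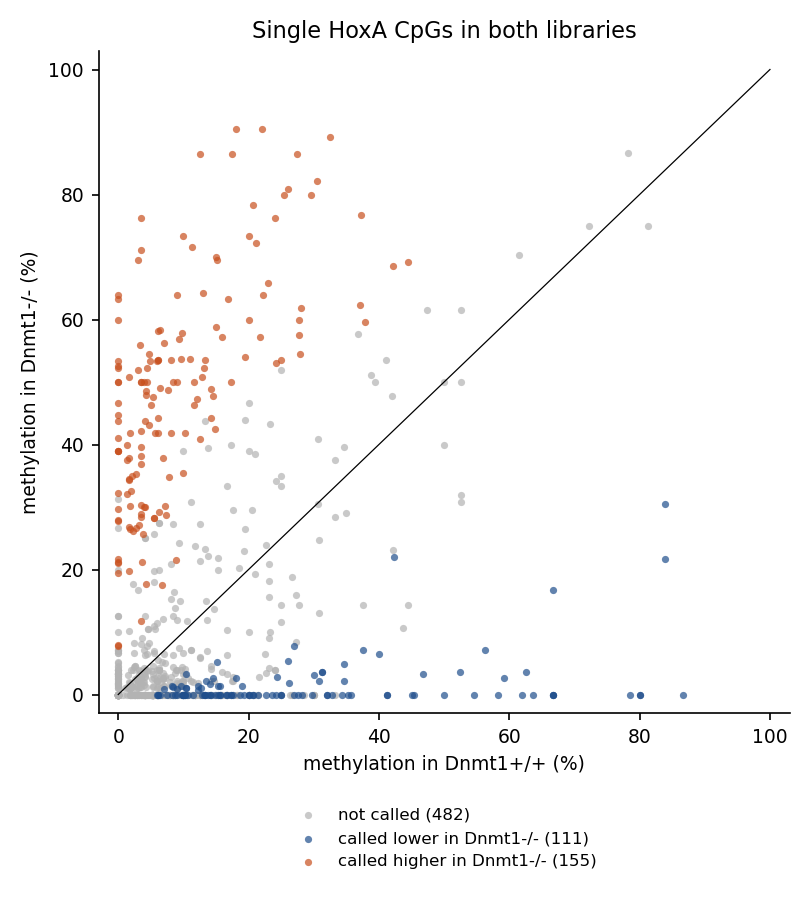
Methylation of each HoxA CpG outside CCGG and TCGA in Dnmt1-/- (vertical axis, percent) against Dnmt1+/+ (horizontal axis, percent), with the line of equal values. The 155 CpGs called higher form a cloud that rises from the low end of the horizontal axis to a median of 50%, and the 111 called lower lie along the bottom.

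The gains were arranged in compact runs. In 10 runs, 5 or more consecutive measured CpGs were all called higher, and together they held 113 of the 155. Run means lay between 3.71% and 22.1% in Dnmt1+/+, and between 39.2% and 72.3% in Dnmt1-/-. In the other direction there was 1 run, of 14 CpGs over 528 bp. Neighbouring CpGs in the Dnmt1-/- library had closely similar levels: Pearson's r across 598 pairs up to 50 bp apart was 0.90 in Dnmt1-/- and 0.65 in Dnmt1+/+, and across 33 pairs over 200 and up to 1000 bp apart it was 0.82 and 0.30. These correlations are across CpGs of the same libraries, many read on the same fragments, and are given as a description.

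Near the gene starts, defined as 1 kb either side of the start of a coding transcript, 9 of the 10 genes had at least 5 other CpGs. A mean change of 10 percentage points or more was seen at 2 of the 9, Hoxa2 and Hoxa5, both higher in Dnmt1-/-, where 0.786% of 12336 promoters in the genome were higher by as much. The other 7 means were all lower in Dnmt1-/-, by less than 10 points, where 15.3% of promoters were lower by 10 points or more. Under other settings 3 of the 7 passed 10 points: Hoxa9 from its outermost annotated start (-13.2), Hoxa11 within 500 bp (-10.9) and Hoxa10 with pooled calls (-10.2). The median HoxA promoter changed by -5.83 points, against -1.36 over all promoters.

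At the anterior end, Hoxa2, which patterns the hindbrain and the hyoid arch, had methylation that differed between its upstream sequence and its body. All 5 other CpGs near its start lie 318 to 364 bp upstream, in the sequence printed above, and all 5 were called higher. Their levels in sequence order went from 20.8% to 78.3%, from 11.3% to 71.7%, from 25.5% to 80%, from 16.8% to 63.3% and from 27.8% to 60%. The levels of the libraries did not overlap, at depths of 53 to 107 calls in Dnmt1+/+ and 60 to 120 in Dnmt1-/-, and the adjusted p of Fisher's exact test was between 1.77e-19 and 0.00224. The outer CpGs had 53 and 54 calls in Dnmt1+/+ and 60 in Dnmt1-/-, and those between had 106 or 107 and 120. Whether the same molecules were counted repeatedly there was not tested, so the adjusted p may rest on fewer independent calls. The body of Hoxa2 was already at an intermediate level and showed no calls in either direction. Its 10 CpGs, all exonic, averaged 50.9% in Dnmt1+/+ and 52.4% in Dnmt1-/-, with pooled intervals of 43.1 to 57.4% and 45.2 to 57.6%. Below the 3′ end of Hoxa2 stood the only run of losses, at chr6:52110734-52111261 in an exon of the noncoding transcript Gm15051. Its 14 CpGs were between 35.7% and 80% in Dnmt1+/+, and in Dnmt1-/- 1 of 329 calls was methylated, so that the ends of this gene differed in direction within a few kilobases.

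Hoxa3, needed for the thymus and parathyroid, had no measured CpG near its chosen start outside CCGG and TCGA. In its body, 6 exonic CpGs averaged 18.3% in Dnmt1+/+ and 60.9% in Dnmt1-/- at a median depth of 20 and 30 calls, and 5 of them were called higher. The exception, at chr6:52120471, read 50% in Dnmt1+/+ and 40% in Dnmt1-/-, which was not called (adjusted p = 0.760, Fisher's exact test). The stretch from Hoxa2 to Hoxa3 had 16 CpGs that averaged 28.6% and 47.0%, with 7 called higher and 0 lower. From Hoxa3 to Hoxa4, 53 CpGs had a mean of 5.03% and 7.80%, with 6 called higher and 1 lower. Of those 6, 4 stood in the tile chr6:52127001-52128000, where 9 CpGs averaged 7.22% and 21.3%.

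Hoxa4, a gene of the neck region, gained methylation at its 3′ end and had lower values around its start. The 8 CpGs of its body, all exonic and in a run of 548 bp, averaged 13.6% in Dnmt1+/+ and 48.8% in Dnmt1-/-, and all 8 were called higher. The 57 CpGs around the start averaged 9.46% and 2.67%, with 14 called lower and 0 higher. The CpGs on either side of this change lay 462 bp apart: at chr6:52140591 methylation went from 19.4% to 54.0%, and at chr6:52141053 from 27.3% to 16%. From Hoxa4 to Hoxa5, 14 CpGs averaged 27.4% and 62.3% and 11 were called higher, among them a run of 8 over 83 bp (chr6:52150522-52150604) that lies in an exon of a long Hoxa3 transcript.

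Hoxa5, which acts in lung and in the skeleton of the neck and upper thorax, had the largest number of CpGs called higher of the 10 genes: 58 of 75 around its start and all 9 in its body. It also had the most measured CpGs near a start. All measured CpGs were likewise called higher near the Hoxa2 start (5) and in the Hoxa4 body (8). Around the start the median level was 3.03% in Dnmt1+/+ and 34.3% in Dnmt1-/-, and 17 of the 75 reached 50% or more. Pooled calls were methylated in 3.98% (3.47 to 4.56) of 4928 and 34.5% (33.3 to 35.7) of 6271. The difference was smaller across the start itself. Inside the gene, from 734 to 324 bp past the start, 44 consecutive CpGs averaged 3.71% and 39.2% and all were called higher. From 271 bp inside to 102 bp upstream, 21 CpGs averaged 3.18% and 20.8% and 5 were called higher, at median depths of 24 and 16 calls. Pooled calls in this window were methylated in 4.03% and 13.5%, and all 5 of the called CpGs lay inside the gene and none upstream of the start. The window is the gap between the runs on either side, so its fewer calls follow in part from its limits. In the next 9 CpGs, 108 to 255 bp upstream in the sequence printed above, the means were 5.46% and 46.2% and all 9 were called higher. The body was the most methylated tile of the cluster in Dnmt1-/-, and among the 3 picked for the largest rise. Its 9 CpGs had a lowest, median and highest level of 3.57%, 17.5% and 32.5% in Dnmt1+/+ and 48.6%, 82.1% and 89.2% in Dnmt1-/-.

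**Figure D3:**
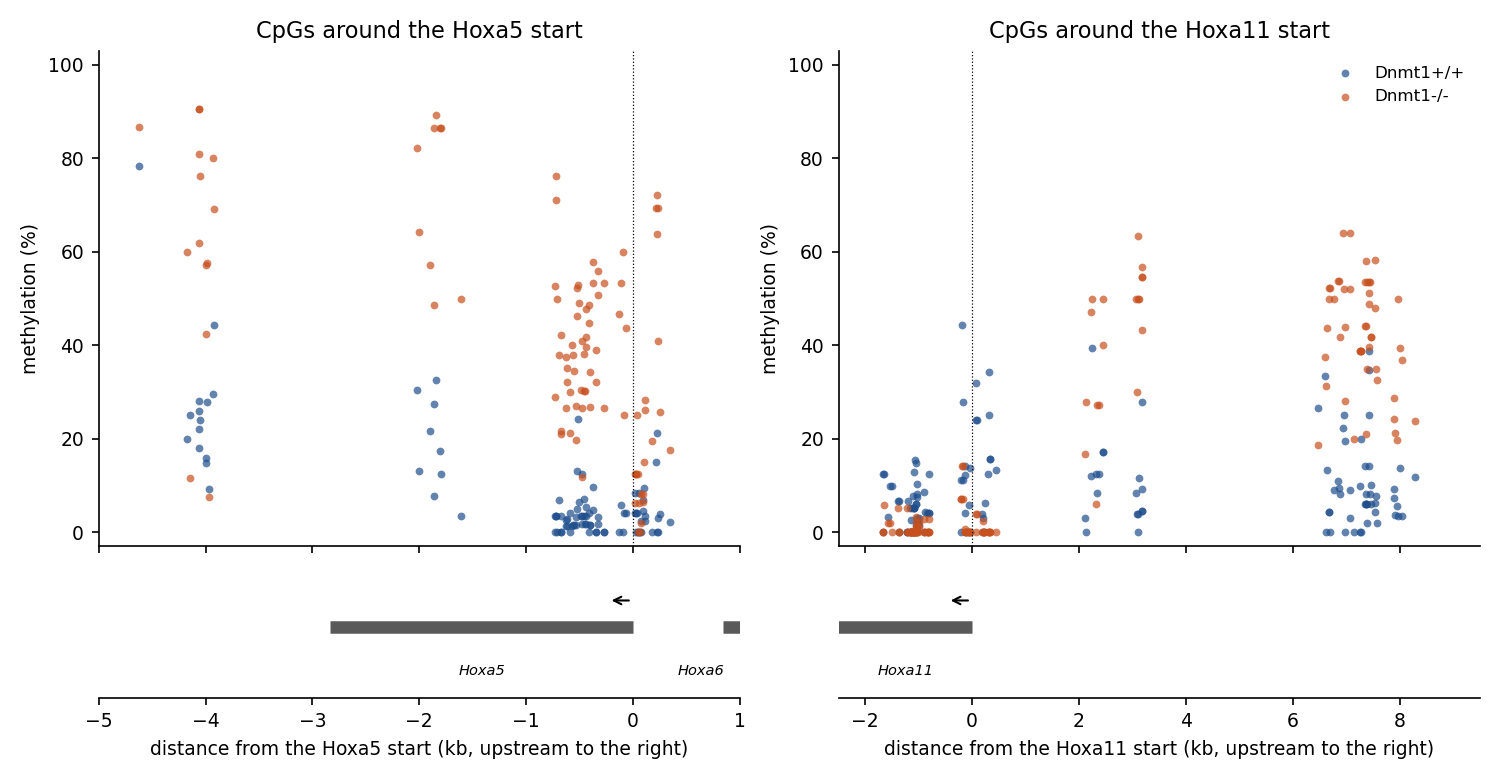
Percent methylation of CpGs outside CCGG and TCGA in both libraries against distance in kb from the starts of Hoxa5 (left) and Hoxa11 (right), with gene bodies below and upstream to the right. Around Hoxa5 the Dnmt1-/- points lie mostly above the Dnmt1+/+ points on both sides of the start, whereas around Hoxa11 they lie near 0 at the start and reach up to 64% only in the stretch upstream.

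The middle of the cluster had few calls. Hoxa6 and Hoxa7, genes of the thoracic region, differed in level. Around the Hoxa6 start 35 CpGs averaged 24.1% in Dnmt1+/+ and 19.8% in Dnmt1-/-, with 2 called higher and 6 lower, and the highest level of any CpG there was 83.9% in Dnmt1+/+ and 33.3% in Dnmt1-/-. Around the Hoxa7 start 28 CpGs averaged 5.94% and 2.38%, with 0 called higher and 5 lower. This difference, -3.56 points, was -5.61 with pooled calls and -5.62 from the outermost annotated start. The Hoxa7 body had 4 CpGs, at a mean of 10.9% and 27.5% on 16 and 40 calls each, and none of the 4 was called. Between Hoxa6 and Hoxa7, 18 CpGs averaged 6.36% and 2.99% and 1 was called lower.

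The posterior genes up to Hoxa11 had low values that were lower still in Dnmt1-/-. Hoxa9 is known for its part in blood stem cells, Hoxa10 for the uterus and the upper limb bones, and Hoxa11 for the forearm bones. Around the Hoxa9 start 8 CpGs averaged 7.59% and 1.76%, and in its body 26 CpGs averaged 12.8% and 1.26%. Around the Hoxa10 start 45 CpGs averaged 10.5% and 1.01%, with 14 called lower, and in its body 35 averaged 10.1% and 1.37%, with 7 called lower. Around the Hoxa11 start 37 CpGs averaged 10.7% and 1.89%, with 8 called lower, and in its body 36 averaged 5.34% and 0.806%, with 6 called lower. No CpG near the start or in the body of these genes was called higher. Read from the outermost annotated start instead, the difference near the start was -13.2 points at Hoxa9 and -2.50 points at Hoxa10.

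In the stretches between these posterior genes, likewise, no CpG was called higher. From Hoxa7 to Hoxa9, 26 CpGs averaged 23.4% and 3.44% and 9 were called lower. Within it the tile chr6:52170001-52171000 averaged 45.8% and 8.33% over 8 CpGs, the lowest of which was at 31.2% in Dnmt1+/+ and the highest at 16.7% in Dnmt1-/-. From Hoxa9 to Hoxa10, which holds the microRNA gene Mir196b, 37 CpGs averaged 14.4% and 0.793%, and 11 were called lower. From Hoxa10 to Hoxa11, 24 CpGs averaged 5.10% and 0.492%, and 2 were called lower.

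Between Hoxa11 and Hoxa13 the direction changed again. In this stretch 66 CpGs averaged 10.5% in Dnmt1+/+ and 41.9% in Dnmt1-/-, 44 were called higher and 0 lower, and pooled calls were methylated in 9.83% (8.80 to 10.96) of 2920 and 41.5% (39.8 to 43.3) of 2980. Its first measured CpG, at chr6:52198328, read 3.03% and 16.7%, and the nearest measured CpG on the Hoxa11 side, at chr6:52196667, belonged to the low sequence around the Hoxa11 start. A run of 9 CpGs lay in the exon of Hoxa11as, with a mean of 8.27% and 50.3%. Closer to Hoxa13, runs of 8, 5 and 8 CpGs averaged 8.58% and 52.2%, 6.53% and 47.8%, and 6.54% and 42.5%. The last measured CpG of the stretch, at chr6:52204508, read 11.8% and 23.8%. Hoxa13 itself, which acts in the digits and the urogenital tract, was low: 48 CpGs around its start averaged 7.42% and 0.659%, with 3 called lower and 0 higher, and 7 in its body averaged 16.6% and 6.88% at a median depth of 10 calls in both libraries. The difference around the Hoxa13 start, -6.76 points, was -2.49 points over CpGs with at least 20 calls in each library.

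**Figure D4:**
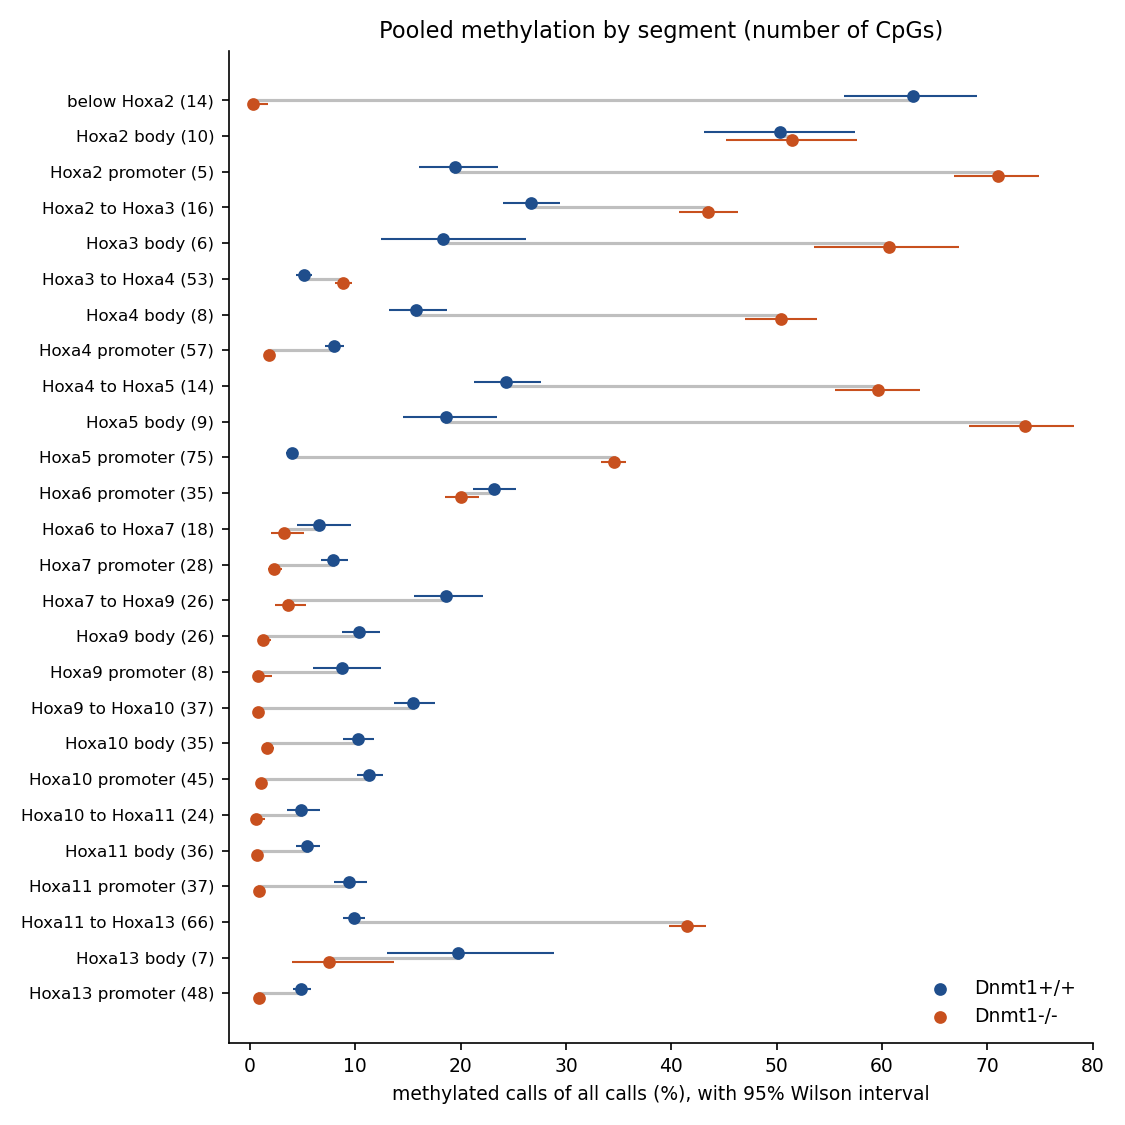
Methylated calls as a percent of all calls in each segment of the cluster with at least 5 CpGs outside CCGG and TCGA, in chromosome order from below Hoxa2 (top) to Hoxa13 (bottom), with the number of CpGs in parentheses; points are pooled values and horizontal lines their 95% Wilson intervals, which cover counting error only. Segments higher in Dnmt1-/- run from the Hoxa2 promoter to the Hoxa5 promoter, with Hoxa4's promoter as an exception, and return between Hoxa11 and Hoxa13.

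Of the 26 segments with at least 5 other CpGs, 8 were higher in Dnmt1-/- by 10 points or more, 4 were lower by as much and 14 differed by less. By 1 kb tiles, 10 of 43 (23.3%) were higher by 25 points or more, where 0.334% of the tiles in the table were, and 2 (4.65%) were lower by as much, where 48.1% were. Tiles lower numbered 8 at a difference of 10 points (56.0% in the table) and 1 with at least 20 calls (33.5%). The 3 tiles with the largest rise were those of the Hoxa5 body, the sequence upstream of Hoxa2 and the Hoxa3 body, and they were also the 3 most methylated in Dnmt1-/-. The 3 tiles with the most negative change were those below Hoxa2 (61.8% and 0.357% over 10 CpGs, all called lower), between Hoxa7 and Hoxa9 (6 of 8 called lower), and at chr6:52174001-52175000 in Hoxa9 (19.2% and 1.26% over 8 CpGs, of which 0 were called at a median depth of 14 and 16 calls).

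The other Hox clusters, read in the same way over their other CpGs, also had many more CpGs called higher than the table. HoxB had 189 of 652 (29.0%), HoxC 134 of 502 (26.7%) and HoxD 146 of 743 (19.7%), beside 155 of 748 (20.7%) in HoxA. Means in Dnmt1+/+ lay between 11.8% and 12.7% in the 4 clusters, and in Dnmt1-/- they were 15.0% in HoxA, 21.5% in HoxB, 21.5% in HoxC and 20.1% in HoxD. CpGs called lower made up 14.8% of HoxA, 12.1% of HoxB, 8.57% of HoxC and 6.999% of HoxD. These shares are set side by side with no test of their difference, since CpGs of a cluster share reads and 1 library stands behind each genotype.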

How the data were processed

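DNA methylation was measured by RRBS, performed by a sequencing service, in 1 Dnmt1+/+ and 1 Dnmt1-/- MEF library. The submitters' processing notes name Bismark and the mm9 build; the Bismark version, restriction enzymes and conversion rate are not given in the sources used here. The deposited table gives, for each CpG and library, the authors' count of methylation calls and the percent methylated, with at least 10 calls in both libraries. Columns were assigned to libraries by the genotype in their names. Percent times depth was within 0.001 of a whole number of methylated calls at 100% of CpGs.

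Each CpG was counted once in means. Fisher's exact test (two-sided, Benjamini-Hochberg over the table) was tested on simulated data. Intervals (95% Wilson, on pooled calls) cover counting error only: PCR copies of 1 molecule could not be told apart. Depth rose steeply between some neighbouring CpGs, as upstream of Hoxa2, and whether calls of 1 molecule were counted repeatedly was not tested. Intervals and Fisher's exact test take calls as independent. Runs allowed gaps of up to 500 bp, and tiles needed 5 other CpGs. Promoters used 1 GENCODE vM1 transcript per gene: protein coding, with a CCDS where there is one, the shortest. All 10 genes are named, with the 3 tiles that rose most, fell most and were highest in Dnmt1-/-, every run called higher and the longest called lower. Regulator genes are named where they changed by 10 points. Members and lists were chosen with earlier results of these data known. Sequences came from NCBIM37, and positions are 1-based. The tools were scipy 1.17.1, pandas 2.3.3, numpy 2.4.6, numba 0.67.0 and matplotlib 3.10.9 in python 3.11.15.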

Additional observations from a re-analysis of the deposited data

How the results depend on the processing

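The count of HoxA CpGs called higher was 155 and lay between 128 and 175 under the alternatives tried (at least 20 calls, CpGs of CCGG and TCGA counted too, an adjusted p under 0.01, a difference of at least 25 points, adjustment over other CpGs only), while the share of the table called higher lay between 0.35% and 0.853%. The count called lower, 111, was 65 at an adjusted p under 0.01 and 44 with a difference of at least 25 points, where 39.1% and 41.3% of the table's other CpGs were called lower. The Dnmt1+/+ mean, 12.3%, was 10.8% with at least 20 calls, 10.3% with pooled calls and 23.8% over all listed CpGs, and the Dnmt1-/- mean, 15.0%, was 16.4% with at least 20 calls and 26.2% over all listed CpGs. Tiles higher, 10, numbered 9 or 10 under alternatives that kept the limit of 25 points (0.131% to 0.438% of the table's tiles) and 14 at a difference of 10 points (0.958%). Tiles lower, 2, numbered 8 at a difference of 10 points (56.0% of the table's), 1 with at least 20 calls (33.5%), 3 over all CpGs (69.0%) and 2 in tiles of 500 bp (38.7%). No promoter change reversed: 30 of 45 values moved by less than their counting interval and 15 by more. Moves of over 1.5 times went both ways. Hoxa9 (-5.83 points) was at -13.2 with its outermost annotated start and at -9.29 within 500 bp or with at least 20 calls, and Hoxa7 (-3.56) at -5.61 with pooled calls and -5.62 with its outermost start. Hoxa10 (-9.49) was at -2.50 with its outermost start, and Hoxa13 (-6.76) at -2.49 with at least 20 calls, -3.77 within 500 bp and -3.98 with pooled calls. Beside Hoxa9 with its outermost start, Hoxa11 within 500 bp (-10.9) and Hoxa10 with pooled calls (-10.2) crossed 10 points. No paired analysis was possible because there was only 1 library per genotype, and for the same reason no replicate could be left out.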

Other observations

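Genes that regulate or work with Hox proteins, with Evx1 and Skap2 beside the cluster, were read at their starts. Of 35 listed genes, 31 could be read from 5 or more other CpGs around the start (1 kb either side), and their median change was -1.03 points, against -1.36 over all promoters. Of the 31, 29 changed by less than 10 points, as did 10352 of the 12336 promoters of the genome, with 0.786% of all promoters higher and 15.3% lower by 10 points or more. Among genes with at least 5 such CpGs, none of 8 Hox cofactors, 9 genes of Polycomb repressive complex 1 and 5 trithorax genes changed by 10 points. Of 7 genes of Polycomb repressive complex 2 with that many, Aebp2, an accessory subunit, was lower, with 52 CpGs at a mean of 17.4% in Dnmt1+/+ and 6.17% in Dnmt1-/-. Evx1, a homeobox gene beside the HoxA cluster, was higher, with 22 CpGs at a mean of 9.06% and 21.5%.

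CTCF is an insulator protein known to bind within Hox clusters. Its 12-letter core motif, searched on both strands, matched 7 times in the cluster, in 7 of 105 tiles of 1 kb (6.67%), against 5.02% of tiles of the genome. At the match in the tile that holds the 3′ end of Hoxa4 (chr6:52139607-52139618), the 8 CpGs within 1 kb averaged 13.6% and 48.8%. At the match upstream of the Hoxa11 start (chr6:52196796-52196807), the 27 CpGs within 1 kb averaged 13.1% and 2.25%, with 8 called lower. At the other 3 matches with measured CpGs the means were also lower in Dnmt1-/-, at 6.22% and 3.16%, 10.9% and 2.47%, and 4.12% and 0.409%, so that 1 of 5 was higher and 4 were lower. A match is a description of the letters only.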
